A study of Sus scrofa with 8 samples.

Results

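TAP1, SLA-7, PSMB8 and PSMB10 are 4 pig genes of MHC class I antigen presentation, and their transcripts were followed in whole blood of miniature pigs fed with or without shochu distilled water (SDW), named after a Japanese spirit. The 4 genes were picked from 1930 gene symbols found on the array with their differences between the diets already known. Those differences are therefore given as a description, with no test. All 8 probes that the array holds for the 4 genes were read in all 8 animals, and 6 of these were kept, meaning that the scanner software marked the spot as well above background in 4 animals or more. The PSMB8 probe stands in the files under its older name, LMP7, and was matched to PSMB8 through its RefSeq accession.

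The animals were 8 female Clawn miniature pigs, 8 to 9 months old and kept as conventional animals. Controls (n = 4) ate dry feed. SDW animals (n = 4) ate the same feed with water and SDW added, 1 part of each by weight. Sampling is placed at 12 weeks of feeding by the design text, but at 14, 15, 16 and 17 weeks by the descriptions of replicates 1 to 4 of either diet. Each animal gave 1 Agilent array read in 1 colour, made from 0.5 µg of RNA of unsorted blood, so fewer cells of a type and less RNA per cell cannot be told apart.

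MHC class I molecules show short peptides from inside the cell to CD8+ T cells, and nearly every white blood cell carries them. The proteasome cuts proteins into such peptides. In immune cells, and under interferon gamma, its catalytic subunits are exchanged for PSMB8, PSMB9 and PSMB10, which makes the immunoproteasome. TAP1 and TAP2 form the pump that carries the peptides into the endoplasmic reticulum, where they are loaded onto a class I heavy chain, called SLA in pigs, paired with beta-2 microglobulin (B2M). SLA-7 is counted among the non-classical class I chains.

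The probes are DNA strands of 60 bases, and 5 of the 8 are shown because the results differ between probes of the same gene and with the base composition of the probe. The number is the start that the array files give within the transcript, and the capitals mark a stop codon, at the end of a frame that is otherwise open over the PSMB8 probe.
TAP1 477: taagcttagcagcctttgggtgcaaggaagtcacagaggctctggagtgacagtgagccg
TAP1 1792: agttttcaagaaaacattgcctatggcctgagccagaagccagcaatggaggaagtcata
SLA-7 649: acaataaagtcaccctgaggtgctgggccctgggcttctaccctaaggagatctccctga
PSMB8 729: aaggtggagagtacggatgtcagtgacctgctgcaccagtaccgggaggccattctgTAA
PSMB10 769: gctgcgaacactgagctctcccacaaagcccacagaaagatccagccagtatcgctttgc
G and C made up 45% of the bases of the TAP1 probe at 1792 and 55% of the other probes shown. The other SLA-7 probe starts at 1146 (45% G and C), and the other PSMB10 probes start at 919 and 929 (40% G and C). The PSMB10 probes at 919 and 929 share 50 bases and are no independent readings. No probe of another gene on the array shared a run of 20 bases with any of the 8 probes, but signal from other class I chains on the SLA-7 probes was not tested. In the RefSeq pig gene table (assembly Sscrofa11.1), TAP2, PSMB8, TAP1 and PSMB9 follow one another among the protein-coding genes, SLA-7 lies between SLA-8 and SLA-6 on the same chromosome, and PSMB10 lies on another.

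A level is the log2 intensity of a spot minus that of the 75th percentile on its array, so 0 is the brightness that 1 in 4 probes exceeds. Levels of different probes were not set against each other, since probes differ in how they bind. The arrays lay on 3 slides: slide 1 carried control 3 with SDW 2 and 3, slide 2 carried controls 2 and 4 with SDW 1, and slide 3, scanned on another day, carried control 1 with SDW 4. Of 43603 probes, 17352 were kept by the same rule and entered the fits. The limma fit of the diets called 0 of them at an adjusted p under 0.05 (0.0%) and 251 at an unadjusted p under 0.05 (1.45%), and the median absolute difference was 0.17. Checked against blood, kept probes were found for 6 of 8 T cell, 5 of 11 neutrophil, 3 of 4 monocyte and 4 of 4 eosinophil and basophil genes listed. ACTB, an actin of nearly all cells, was bright, and the 1 probe for haemoglobin alpha (HBA) was not kept. PTPRC (CD45), which marks all white blood cells, had no probe that could be named.

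TAP1, the first subunit of the peptide pump, had the largest difference between the diets of the 4 genes. At the probe starting at 1792 the level was 1.98, -1.25, -0.63 and -0.75 in controls 1 to 4. It was -5.02, -2.61, -2.09 and 1.12 in SDW animals 1 to 4. SDW 4 lay above 3 of the 4 controls, so the groups overlapped, and the other 3 SDW animals lay below every control. The mean was -0.16 ± 1.45 (SD, n = 4) for control and -2.15 ± 2.53 (SD, n = 4) for SDW, a difference (SDW minus control) of -1.99 ± 1.15 (SE). Among the kept probes, 6.06% had a difference of -0.5 or below. The signal is weak: the spot passed the background mark in all 4 controls but only in 2 of 4 SDW animals (SDW 2 and SDW 4). The probe was thus kept through the controls alone. In SDW 1 the spot intensity was 1.88 with a spot error of 1.79 as given by the scanner software, and in SDW 3 it was 9.41 with an error of 2.13. In control 1 it was 218 with an error of 22.1.

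The second TAP1 probe, at 477, was dimmer still and was not kept. It was well above background in 2 animals, control 1 (0.81) and SDW 4 (-0.11). The other 3 controls lay between -2.98 and -2.17, and the other 3 SDW animals between -4.18 and -2.65. Control 1 and SDW 4 were thus the highest animals at both TAP1 probes. The mean difference at this probe was -0.75, with a control mean of -1.69 ± 1.71 (SD, n = 4) and an SDW mean of -2.44 ± 1.70 (SD, n = 4). The TAP1 difference at 1792 turned on single animals and on the background correction: it was -1.04 without SDW 1, -1.28 without control 1 and -3.08 without SDW 4, and -0.59 with normexp background correction, whose offset pulls dim probes together.

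SLA-7, the class I heavy chain among the 4 genes, was read at the probe starting at 649. Its level was 7.61, 5.28, 5.32 and 5.70 in controls 1 to 4. It was 4.02, 4.81, 5.67 and 6.93 in SDW animals 1 to 4. The groups overlapped, control 1 and SDW 4 were again the highest animals, and SDW 1 was the lowest. The mean was 5.98 ± 1.103 (SD, n = 4) for control and 5.36 ± 1.25 (SD, n = 4) for SDW, a difference of -0.62 ± 0.68 (SE), which is smaller than its error. Leaving out control 1 gave -0.08, leaving out SDW 1 gave -0.17 and leaving out SDW 4 gave -1.14. The spot intensity ran from 989 (spot error 98.9) in SDW 1 to 10778 (spot error 1078) in control 1; the spot error leaves out labelling and hybridisation.

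The SLA-7 probe at 1146 gave little signal. It was well above background in 2 animals, control 4 (-2.19) and SDW 4 (-1.86). Controls lay between -2.45 and -1.95 and SDW animals between -3.02 and -1.86, with means of -2.20 ± 0.20 and -2.58 ± 0.52 (SD, n = 4 each). Neither probe therefore parted the diets, and the probe at 1146 was measured above background in too few animals to read SLA-7 from it.

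PSMB8, a catalytic subunit of the immunoproteasome, was measured by its 1 probe on all 8 arrays. The level was 4.84, 4.13, 4.13 and 3.93 in controls 1 to 4. In SDW animals 1 to 4 it was 3.50, 3.88, 3.70 and 3.97. SDW 4 lay just above control 4, and the other SDW animals lay below all controls. The mean was 4.26 ± 0.40 (SD, n = 4) for control and 3.76 ± 0.21 (SD, n = 4) for SDW, a difference of -0.50 ± 0.26 (SE). Without control 1, the highest animal, it was -0.30.

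PSMB10, the third catalytic subunit of the immunoproteasome, had a difference of the opposite sign, smaller than its error at the probes at 929 and 769 and slightly larger at 919. At the brightest probe, at 929, the level was 6.16, 6.16, 6.10 and 5.31 in controls 1 to 4. In SDW animals 1 to 4 it was 6.32, 6.34, 6.18 and 5.83. Control 4 was far below the other controls and SDW 4 was the lowest SDW animal, so the groups overlapped. The mean was 5.93 ± 0.42 (SD, n = 4) for control and 6.17 ± 0.24 (SD, n = 4) for SDW, a difference of 0.23 ± 0.27 (SE). Without control 4 the difference was 0.03, and without both slide 3 animals it was 0.42. The probe at 919, which shares most of its bases, gave 0.30 ± 0.27 (SE), and the probe at 769 gave 0.09 ± 0.26 (SE). At 769 the level was 6.13, 5.77, 5.74 and 5.08 in controls and 5.57, 5.90, 5.84 and 5.76 in SDW animals, and control 4 was again the lowest.

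**Figure D1:**
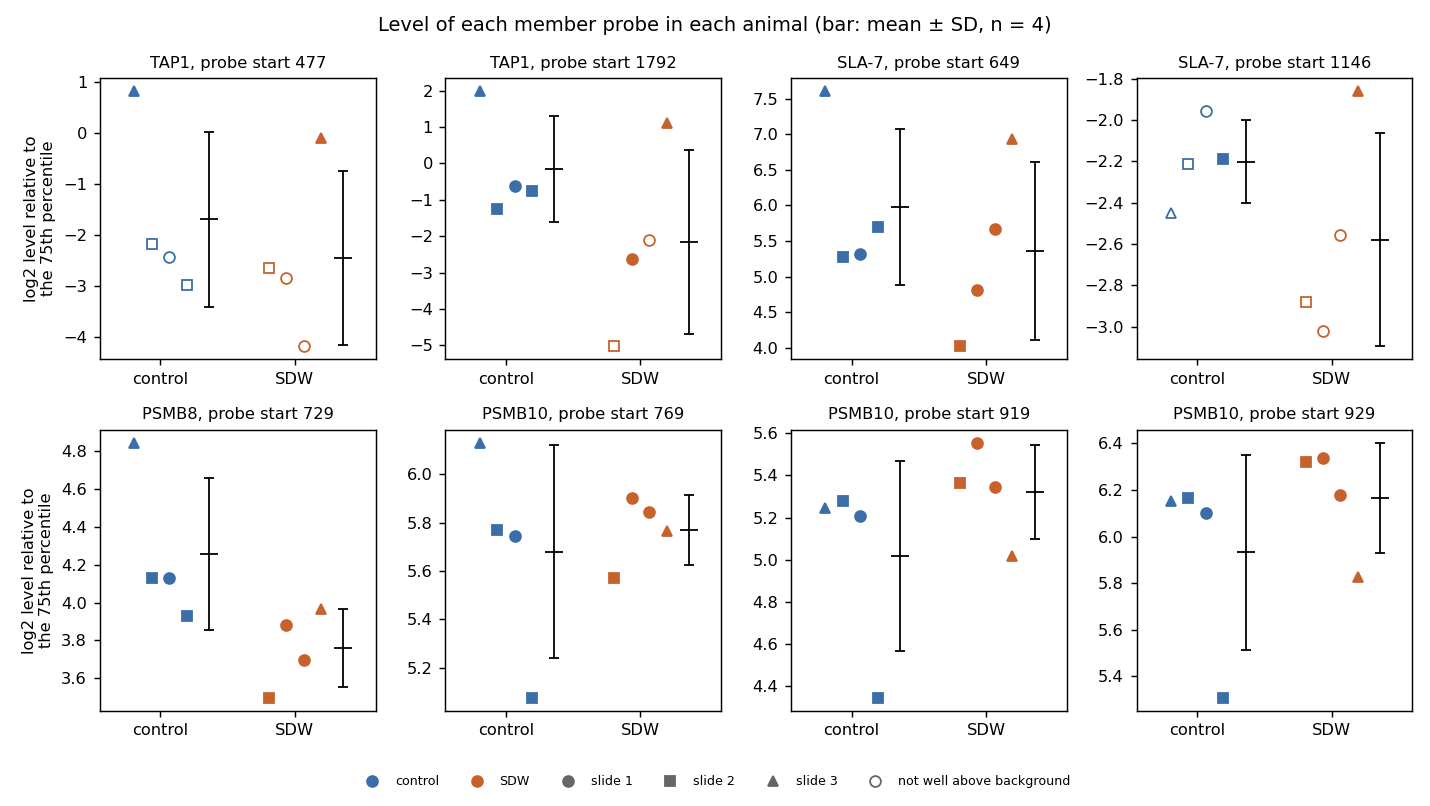
Each panel shows 1 probe of TAP1, SLA-7, PSMB8 or PSMB10, with the log2 level relative to the 75th percentile of the array on the vertical axis (scales differ between panels) and the diet on the horizontal axis; each point is 1 animal, its shape gives the slide, open points are not well above background, and the bar is the mean ± SD (n = 4). The triangles of slide 3 (control 1 and SDW 4) are the highest points at both TAP1 probes and at the SLA-7 probe at 649, and control 4 is the lowest point at the 3 PSMB10 probes.

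Since each slide held both diets, the difference could be read within each of them. For TAP1 at 1792, SDW minus control was -1.73 on slide 1, -4.02 on slide 2 and -0.87 on slide 3. The value on slide 2 rests on the spot of SDW 1 and that on slide 1 in part on SDW 3, neither above background, so their sizes are uncertain. For SLA-7 at 649 it was -0.08, -1.47 and -0.67 on slides 1, 2 and 3. For PSMB8 it was -0.34, -0.53 and -0.88. All 3 genes were thus lower in SDW animals on each slide, as were 12.7% of all kept probes, from which nothing is read here because the same contrast chose the genes. PSMB10 at 929 gave 0.16, 0.58 and -0.33, so its direction was not the same on all slides. With slide as a fixed block in limma the differences were -2.33 ± 0.49 (SE) for TAP1, -0.75 ± 0.32 for SLA-7, -0.55 ± 0.21 for PSMB8 and 0.18 ± 0.27 for PSMB10. Among the 6 animals of slides 1 and 2, every SDW animal lay below every control for PSMB8, as for 2.46% of the kept probes, from which again nothing is read.

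**Figure D2:**
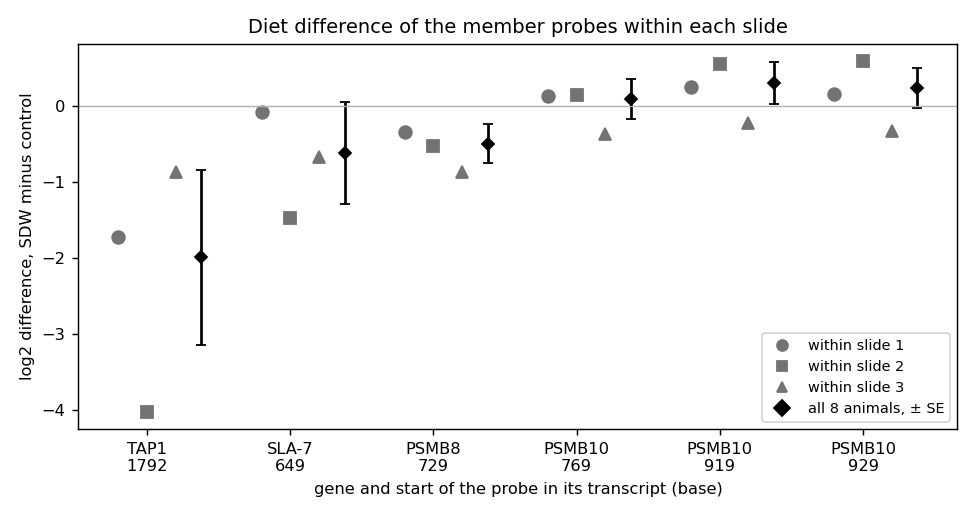
The vertical axis gives the log2 difference SDW minus control for the 6 kept probes of the 4 genes, named on the horizontal axis with the start of the probe; grey points are the differences within slides 1, 2 and 3, and black diamonds the difference over all 8 animals ± SE. TAP1 lies at -1.73, -4.02 and -0.87 on the 3 slides, with SDW 1 (slide 2) and SDW 3 (slide 1) not above background, and the PSMB10 points lie on both sides of 0.

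Slides differed in TAP1 and SLA-7 by the test, and not detectably in PSMB8 and PSMB10. The choice of genes did not use slide, but earlier results of these arrays had already shown a large spread by slide. The slide test is therefore no independent support. Each slide held different animals, and slide 3 only control 1 and SDW 4, so slide and animal cannot be told apart. The limma F test of slide, with diet as a covariate, called 1947 of the 17352 kept probes at an adjusted p under 0.05 (11.2%), of which 965 were higher on slide 3 (5.56%). The count of 1947 became 353 without control 1, 983 without control 2, 1197 without control 3, 1009 without SDW 4 and 748 with normexp background correction. With quantile normalization it was 2028, and with the array median 2651. Of the 6 kept probes of the 4 genes the main slide test called 2: TAP1 at 1792 (limma adjusted p = 0.0094) and SLA-7 at 649 (limma adjusted p = 0.015). The TAP1 fit rests in part on the spots of SDW 1 and SDW 3, which did not pass the background mark, and where all 8 arrays must pass it TAP1 is not tested. At TAP1 the mean was 1.55 on slide 3 and -2.06 on the other slides, a gap of 3.61 whose size depends on those dim spots: it was 1.54 with normexp background correction. At SLA-7 the means were 7.27 and 5.13, a gap of 2.14, above that of 98.8% of kept probes. The dim TAP1 probe at 477 had a gap of 3.23. The SLA-7 call was lost without control 1 (limma adjusted p = 0.093) or without SDW 4 (0.065). PSMB8 had a gap of 0.53 (limma adjusted p = 0.25), which was 0.09 without control 1 and 0.96 without SDW 4. PSMB10 at 929 had a gap of -0.08 (limma adjusted p = 0.86), and the gap of the probe at 769 was 0.30.

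The base composition of a probe went with both the slide gap and the diet difference across the array. Of the kept probes, 305 (1.76%) held at least 50% G and C. Their median slide gap was 0.75, against -0.14 for the 8539 kept probes under 40%, and the slide test called 38.4% of them, against 8.87%. Their median diet difference was -0.25, with 78.4% lower in SDW animals, against 0.06 and 39.8% for probes under 40%. The SLA-7 probe at 649, the PSMB8 probe and the PSMB10 probe at 769 belong to the first class with 55% each. Relative to the median of kept probes of the same class, the diet difference was -0.37 for SLA-7 at 649 and -0.25 for PSMB8. It was -1.95 for TAP1 at 1792 (45% G and C) and 0.24 for PSMB10 at 929 (40%), each against its own class. The gap of SLA-7 above its class was 1.39 and that of TAP1 3.54, whereas that of PSMB8 was -0.22. The part of base composition in the differences of SLA-7 and PSMB8 was not tested further.

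Probes for other class I heavy chains were also called for slide. The array had 23 probes for SLA heavy chains or class I antigens without a named chain, of which 20 were kept, SLA-7 included. The slide test called 12 of the 20, where it called 11.2% of all kept probes. The slide gaps of the 20 ran from -0.62 to 3.34. Several of the 20 read the same transcript, so they are no independent readings. Signal of 1 chain on the probes of another was not tested. The 7 probes with at least 50% G and C were all called, where 38.4% of all kept probes in that class were. Their median gap was 2.61 and their median diet difference -0.54. Of the 13 others 5 were called, with a median gap of 0.74 and a median diet difference of -0.10. In all, 15 of the 20 were lower and 5 higher in SDW animals, and none was called for diet. SLA-1, a classical class I heavy chain, had 7 probes on a single RefSeq transcript. From its start towards its end the gaps were 3.27 at 343, 3.06 at 602, 2.08 at 1057, 1.29 at 1142, 1.29 at 1202, 0.08 at 1362 and 0.74 at 1448. Probes of the same transcript thus differed in their slide gap by more than 3 log2 units, and their diet differences ran from -0.82 at 602 to 0.31 at 1362. Over all 156 RefSeq transcripts with kept probes at least 300 bases apart, the probe nearer the start had the larger gap in 82 (52.6%). This count takes only the sign and does not match the probes for base composition. In SLA-1 the share of G and C was 55% at 343 and 36.7% at 1448. The part of probe position in the SLA-1 gaps was not tested. TAP1 itself had the gaps 3.23 at 477 and 3.61 at 1792.

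**Figure D3:**
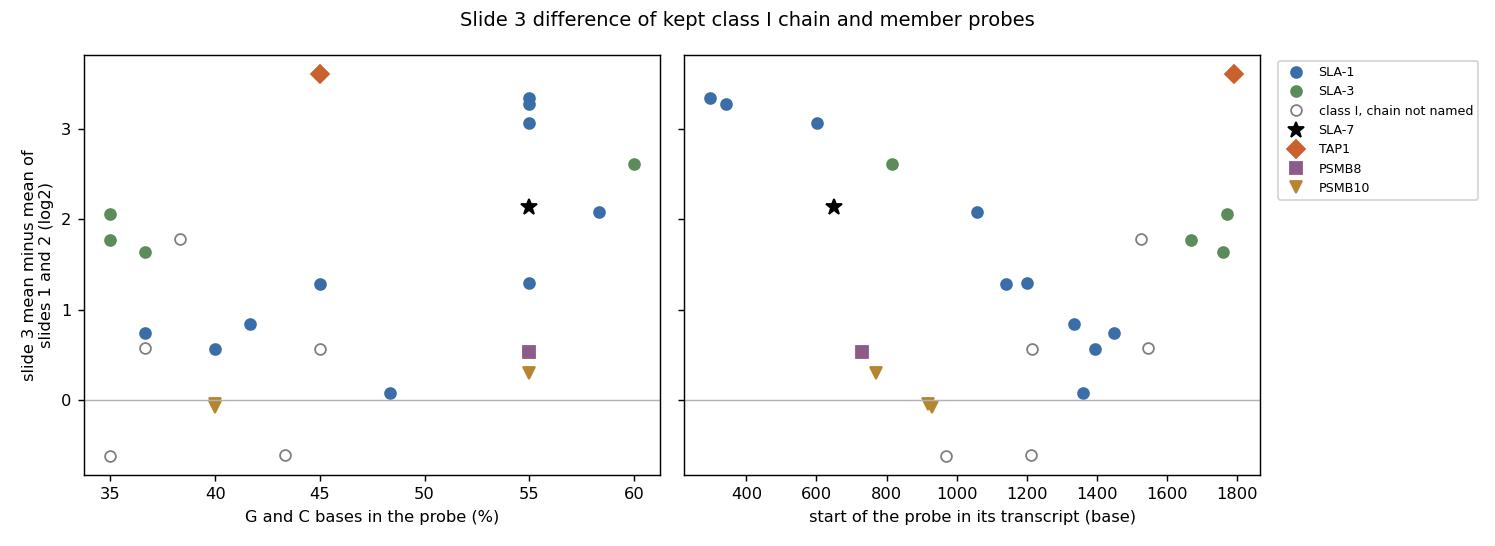
The vertical axis gives the mean log2 level on slide 3 (2 animals) minus that on slides 1 and 2 (6 animals) for kept probes of class I heavy chains and of TAP1, PSMB8 and PSMB10; the horizontal axis gives the share of G and C in the probe (left) and the start of the probe in its transcript (right). The 7 class I chain probes at 50% G and C or above all lie at 1.29 or higher, TAP1 lies highest at 3.61, and PSMB8 and PSMB10 lie between -0.08 and 0.53.

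The other genes of the pathway were taken from a list of 59 genes, of which 34 had a probe and 27 a kept one, the 4 genes above among them. In the limma fit 0 of the 23 others were called higher and 0 lower in SDW animals, where 0.0% of all kept probes were called. Of the 23, 6 were higher and 17 lower by any size, with a median difference of -0.07 against 0.02 for all kept probes, of which 47.1% were lower. Without the slide 3 animals 14 of all 27 were lower, in place of 20. The number lower was 15 with the array median and 15 without control 1. It was 17 with normexp background correction, 20 with quantile normalization and 21 with the authors' value table. Among class I chains and their relatives, B2M, the light chain of every class I molecule, differed by -0.01 and SLA-1 by -0.15. SLA-3, the other chain with a kept probe, was read at its brightest probe, at 1761. Its means were 8.61 ± 0.83 in controls and 8.39 ± 1.00 in SDW animals (SD, n = 4), a difference of -0.22 ± 0.54 (SE). The other kept SLA-3 probes gave larger differences: -0.51 ± 0.65 (SE) at 1771, -0.54 ± 0.79 at 816 and -0.96 ± 0.60 at 1670. The class I-like lipid presenter CD1D gave 0.18, and FCGRT, a class I-like receptor for antibodies, gave 0.16. FCGRT had a second kept probe, at 393, with a difference of -0.72 ± 0.94 (SE) and a slide gap of 2.71, where the brightest, at 1397, had a gap of -0.14. The probe at 393 was dim and well above background in only 3 controls and 2 SDW animals, so the sizes of its values are uncertain.

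Among the loading genes the partner of TAP1 came next in size. TAP2 at its brightest probe, at 445, read 3.90, 5.20, 7.66 and 6.42 in controls and 2.79, 5.58, 7.28 and 4.47 in SDW animals. The groups overlapped over nearly their whole range, and control 1, the highest animal for TAP1, was here the lowest control. The means were 5.79 ± 1.61 and 5.03 ± 1.89 (SD, n = 4), a difference of -0.76 ± 0.99 (SE), and the slide gap was -1.64. The second TAP2 probe, at 1068, had a diet difference of -0.98 ± 0.46 (SE) and a slide gap of 1.33, so probes of TAP2 agreed in the sign of the diet difference and not of the gap. The chaperones CALR (-0.08), PDIA3 (-0.01) and HSPA5 (0.16) and the peptidase LNPEP (-0.03) all lay within 0.2 of 0.

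Among the immunoproteasome genes, PSMB9, the catalytic subunit whose gene lies next to TAP1, differed by -0.07, and so the 3 catalytic subunits lay at -0.50, -0.07 and 0.23. The activator subunits, which open the proteasome, gave -0.01 for PSME1, -0.30 ± 0.27 (SE) for PSME2 and -0.22 for PSME3. PSME2 had means of 5.38 ± 0.34 in controls and 5.08 ± 0.34 in SDW animals (SD, n = 4). Read at the brightest kept probe of each gene, the slide test called 0 of the 6 immunoproteasome genes, where it called 11.2% of all kept probes. Over the whole pathway list, read the same way, it called 3 of 27 genes (11.1%), and 1 of the 23 others (4.35%). These counts depend on the probe. SLA-1 was called at 343 (limma adjusted p = 0.0018) and not at its brightest probe, at 1334 (0.078). IRF9 was called at 718 (limma adjusted p = 0.0014) and not at its brightest probe, at 1393 (0.13). In the constitutive particle, 3 of 14 listed genes had a kept probe: PSMB4 differed by 0.03, PSMA4 by 0.02 and PSMB7 by -0.51.

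Of 19 regulators of these genes, 9 had a kept probe and none was called. The 2 largest differences were those of JAK2, a kinase of interferon gamma signalling, with means of 0.22 ± 0.29 and -0.30 ± 0.71 (SD, n = 4) and a difference of -0.52 ± 0.35 (SE), and of IFNGR2, a chain of the interferon gamma receptor, with means of 5.005 ± 0.37 and 5.20 ± 0.58 and a difference of 0.20 ± 0.33 (SE). NLRC5, which switches on class I genes, gave -0.15, IRF1 0.02, IRF9 -0.02, STAT2 -0.15, JAK1 0.08, NFKB1 -0.18 and CREB1 -0.18.

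**Figure D4:**
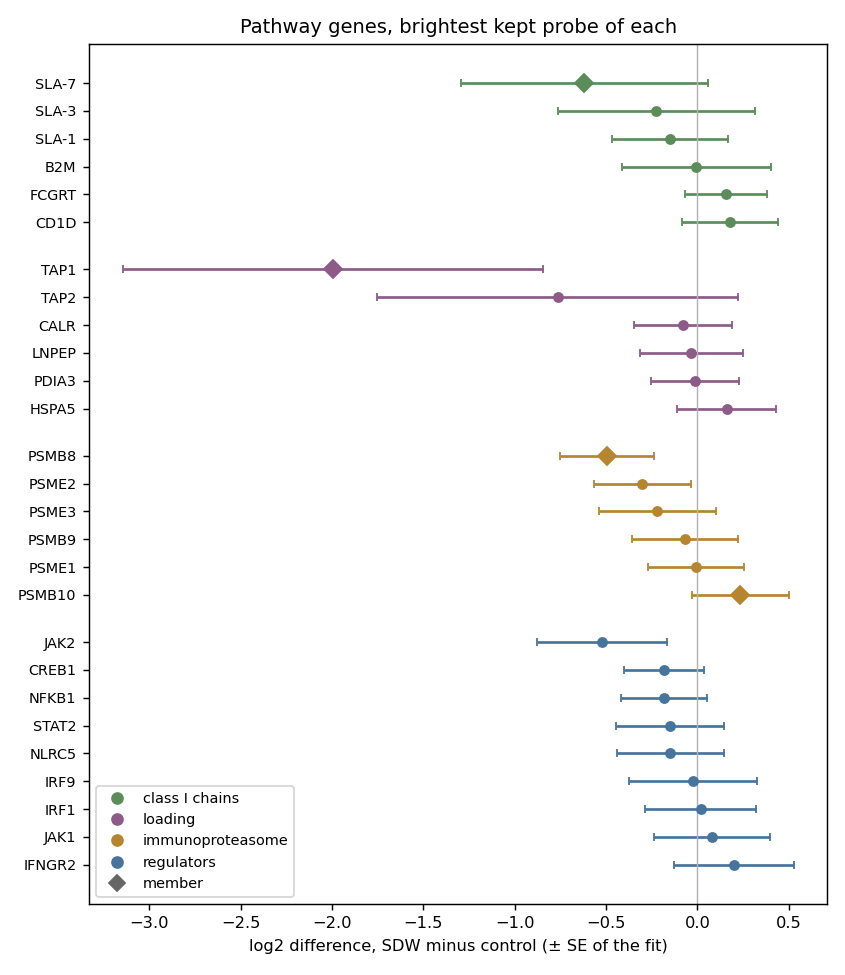
The horizontal axis gives the log2 difference SDW minus control ± SE of the fit for the brightest kept probe of each of 27 pathway genes, listed on the vertical axis by role; diamonds are TAP1, SLA-7, PSMB8 and PSMB10. TAP1 lies at -1.99 with the widest error, and 20 of the 27 genes lie below 0.

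Values of other gene groups in the same animals stand beside these, and their part in the differences was not tested. Of the interferon-induced genes listed, 9 of 17 had a kept probe; 7 were lower and 2 higher in SDW animals, with a median of -0.20, and none was called. Their summed signal was 3034 times the 75th percentile in control 1, the animal with the highest TAP1, SLA-7 and PSMB8. It ran from 352 to 601 in the other controls and from 392 to 988 in SDW animals, with the 392 in SDW 4, the other animal of slide 3. The sum adds linear signals, so the brightest genes weigh most. In control 1 these were OAS2 (level 10.46) and MX1 (10.25), with OAS1 next at 7.37. How the sum relates to TAP1 and SLA-7 was not tested. The 5 kept neutrophil genes were all lower in SDW animals (median -0.76), with summed signals of 540 to 875 in controls and 414 to 728 in SDW animals. The 4 eosinophil and basophil genes were all higher (median 0.68), with 30.4 to 69.1 in controls and 55.9 to 139 in SDW animals. The 6 kept T cell genes had a median of -0.09, with 39.8 to 71.6 in controls and 56.4 to 87.3 in SDW animals. The 2 kept NK and cytotoxic genes were both lower (median -0.64), with 400 to 667 in controls and 188 to 428 in SDW animals. The sums of these cell groups also rest mostly on the brightest gene of each. That gene was ALOX5AP for neutrophils, ALOX15 for eosinophils and basophils, CD3D for T cells and GNLY for NK and cytotoxic cells. The ranges therefore do not read a cell type as a whole. Of the 3 kept monocyte genes, CCR2 gave 0.88, CD163 0.10 and CD14 -0.73. None of these genes was called for diet.

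The genes most like each of the 4 over the 8 animals were sought among 1093 others, by the root mean square gap between levels centred on the mean of each gene. SLA-7, with a spread of 1.07, was nearest to CTSD (gap 0.16), CYP19A1 (0.21), NRAS (0.21), ST6GALNAC4 (0.22) and IGF2 (0.22). Their slide gaps (1.84 to 2.38) and diet differences (-0.61 to -0.48) follow from this choice. Of the class I chain probes, SLA-3 at 816 was nearest to SLA-7 (gap 0.21). TAP1, with a spread of 2.04, was nearest to ANGPTL4 (0.55), F10 (0.81), IRF3 (0.83), LOC100038328 (0.92) and SREBF1 (0.95), whose slide gaps ran from 2.64 to 3.11. The TAP1 spots of SDW 1 and SDW 3 did not pass the background mark, so the likeness to TAP1 is uncertain. PSMB8, with a spread of 0.37, was nearest to TEC (0.19), IKBKB (0.19), PSME2 (0.21), CD81 (0.21) and PDE4B (0.21). Of these 5, PSME2 is on the pathway list. PSMB10, with a spread of 0.32, was nearest to TMBIM6 (0.10), QDPR (0.15), UTP4 (0.15), PTTG1 (0.16) and SEPW1 (0.16). The gap grows with the spread of a gene, so gaps are not compared between the 4 genes.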

How the data were processed

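Blood RNA of 8 pigs was measured on 1 array each. The deposited scanner files hold linear spot intensity. The software was Agilent Feature Extraction, 10.1.1.1 per the file headers but 9.5.3.1 in the submitters' processing notes. The signal used had been background-subtracted and detrended, per the file headers, and not normalized between arrays. The authors' value table holds intensity of the same arrays, and 7 of its 8 columns matched a scanner file that bears another replicate number within that diet, so replicates are numbered as in the scanner files. Control spots and outlier spots (67, none on a probe of the 4 genes) were left out, and each log2 value was scaled by its array's 75th percentile of the deposited intensity, which ran from 39.9 to 73.1. Between 35.2% and 43.5% of probes were well above background per array, and none was saturated. The number of arrays limits the precision.

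Of 43603 probes, 3002 had a symbol: 2002 through a RefSeq accession, 723 as named in the file, 132 by synonym, 120 by gene number and 25 by description or name. The brightest kept probe stood for a gene. Other probes are given beside it for the 4 genes and for some list genes only. Genes named were the 4 members, the list genes with the 2 largest differences per role in full, and the 5 most alike by profile. R 4.3.3 with limma 3.58.1 (lmFit, eBayes, Benjamini-Hochberg, threshold 0.05) was tested on simulated data. Diet was fitted without covariates, and slide with diet as a covariate. The members, lists and tests were chosen with earlier results of these data known. The comparisons by base composition and by probe position were chosen after the values were seen. Besides the 59 genes of the pathway list, 1 further regulator is not reported here. No promoter or protein sequence was used.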

Additional observations from a re-analysis of the deposited data

Results flagged for a closer look

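In 4 of the groups of 4 animals examined for a value far from the rest (62 in all, where chance flags about 1 in 20), the gap of 1 animal to its nearest neighbour took most of the range. Control 4 was lowest at the PSMB10 probe at 929 (5.31, next 6.10; share of the range 0.927) and at the overlapping probe at 919 (4.34, next 5.21; share 0.922). SDW 3 was lowest for JAK2 (-1.36, next -0.03; share 0.853). Control 1 was highest for PSME2 (5.89, next 5.26; share 0.836).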

How the results depend on the processing

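The limma count for the diets was 0 under each alternative except without both slide 3 animals, where 1 unnamed probe was called, no gene of the pathway list. At an unadjusted p under 0.05 the count ran from 162 with normexp to 1143 with slide as a fixed block and 823 with no filter. The pathway list had 0 calls under every alternative run. The slide count, 1947 in the main fit, was 748 with normexp, 2028 with quantile normalization and 2651 with the array median. It was 1628 where all 8 arrays must be well above background and 1302 with no filter. When 1 array was left out it ran from 353 (without control 1) to 1846. It was 983 without control 2, 1197 without control 3 and 1009 without SDW 4. The diet differences of the 4 genes kept their sign under all alternatives run. Nothing is read from this, because the same contrast chose the genes and the alternatives reuse the same arrays. Some values came near 0: -0.08 for SLA-7 without control 1 and 0.03 for PSMB10 without control 4. TAP1 has no value where all 8 arrays must be well above background. Between animals of the 2 diets with the same replicate number, deviations from the diet mean correlated at -0.17, 0.11, 0.33 and -0.38. Only the animals of replicate 3 shared a slide, so these values cannot decide whether the numbers pair the animals. A limma fit with the replicate block called 0 probes, and 239 at an unadjusted p under 0.05. The gap of PSMB10 on slide 3 was -0.29 with the array median and 0.09 without SDW 4. With probes at least 600 bases apart, the upstream probe had the larger gap in 54.7% of 117 transcripts. Signal over background limits TAP1 and the SLA-7 probe at 1146 most.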
